A study of Mus musculus with 16 samples.

Results

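The genes described here are 38 Hox genes of the HoxA, HoxB, HoxC and HoxD clusters, chosen by symbol (Hox, a cluster letter and a paralogue number) and not by their values. They are 38 of the 26127 genes in the deposited table, with 10 in HoxA, 10 in HoxB, 9 in HoxC and 9 in HoxD. The RNA came from 16 libraries of mouse embryonic stem cells (ESCs): 8 wildtype (WT), 4 Dnmt1 -/- (Dnmt1 KO) and 4 Dicer/Dnmt1 -/- (Dicer/Dnmt1 KO). All carry the label E14 as background strain. In the methods, by contrast, the knockout lines descend from Dnmt1 loxP/loxP ESCs of strain C57BL/6, and these statements conflict. Dnmt1 is the enzyme that copies DNA methylation to the new strand after replication, and Dicer cuts double-stranded precursors into small RNAs such as miRNAs. According to the methods, Dnmt1 was deleted by a tamoxifen-induced Cre. Dicer was either knocked out by CRISPR/Cas9 in the same loxP parent, or given loxP sites there and deleted by the Cre. The labels name a Dicer knockout and do not say which of these it was. Lines were grown from single-cell colonies in serum and LIF, with or without feeder cells. Neither the labels nor the methods say which libraries had feeders or tamoxifen, or whether replicates were separate cultures. The p-values below therefore measure the spread between these libraries, which may be technical.

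Hox genes encode transcription factors with a homeodomain that give cells their position along the head-to-tail axis of the embryo. Within a cluster they lie on 1 strand in the order in which they are used, anterior genes (low paralogue numbers) at the 3′ end and posterior genes (high numbers) at the 5′ end. In ESCs the clusters are a textbook example of bivalent chromatin: Polycomb complexes hold them silent with H3K27 methylation while Trithorax complexes keep H3K4 methylation on their promoters. Retinoic acid and Cdx factors open them during differentiation, and miRNAs encoded between the Hox genes trim their messages.

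On build NCBIM37, these genes span 98.5 kb of chromosome 6 for HoxA (52112350 to 52210874, minus strand) and, for HoxB, 173.9 kb of chromosome 11 (96055630 to 96229570, plus strand). HoxC covers 115.7 kb of chromosome 15 (102751534 to 102867274, plus strand) and HoxD 96.8 kb of chromosome 2 (74506367 to 74603200, plus strand). Each cluster reads from 1 strand over all of its members.

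The miRNAs of the clusters are shown because Dicer/Dnmt1 KO removes the enzyme that matures them, and because their seeds (bases 2 to 8, in capitals) are what pairs with Hox messages. Mature sequences are from RefSeq for GRCm38.p6.
miR-10a-5p (HoxB, beside Hoxb4): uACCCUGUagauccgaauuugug
miR-10b-5p (HoxD): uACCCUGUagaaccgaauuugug
miR-196a-5p (HoxB and HoxC): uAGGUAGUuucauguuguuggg
miR-196b-5p (HoxA): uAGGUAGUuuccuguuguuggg
miR-615-3p (HoxC): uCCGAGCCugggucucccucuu
The miR-10 pair shares a seed and so does the miR-196 pair. The best known target site is in the 3′ UTR of Hoxb8, at chr11:96146202-96146223 of NCBIM37 on the plus strand. There 21 of 22 bases form Watson-Crick pairs with miR-196a. The 1 exception is U5G, a G:U wobble pair, counted from the 5′ end of the miRNA and in capitals below.
Hoxb8 site of miR-196a: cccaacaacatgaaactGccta

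The libraries held 31.46 to 52.54 M reads, of which 44.2% to 48.7% lay in genes. Values are reads per M reads (RPM), and 3 reads, the most that a count of 0 allows, equal 0.0571 to 0.0954 RPM. These limits cover counting error only, since PCR copies of a molecule cannot be told apart without molecular identifiers. Odd counts were commoner than even ones (1083 genes at 1 read, 272 at 2, 508 at 3 and 215 at 4 in WT 1A), and the cause was not tested. Dnmt1 averaged 152 ± 64.5 RPM (SD, n = 8) over the WT libraries, 21.2 ± 2.83 (n = 4) over the Dnmt1 KO libraries and 23.8 ± 1.16 (n = 4) over the Dicer/Dnmt1 KO libraries. WT 4A and WT 4B stood apart with log2 RPM of 5.69 and 5.55 beside 7.40 to 7.66 in the other WT libraries. Dicer1 was 39.8 ± 9.96, 44.4 ± 5.91 and 14.7 ± 1.61 RPM in the same order of groups. Within WT, Dicer1 too was lowest in WT 4A and WT 4B, at log2 RPM of 4.78 and 4.56 beside 5.15 to 5.68. Why these libraries differ, and whether their labels are right, was not tested. Pluripotency genes, the defining markers of ESCs, summed to 1730 to 3370 RPM over the libraries (10 measured genes). A list of 20 fibroblast genes, which feeder cells would carry, summed to 230 to 734 RPM in WT, 425 to 559 in Dnmt1 KO and 554 to 941 in Dicer/Dnmt1 KO, with none at 0 throughout a group. The 5 Y-linked genes summed to 0.235 to 1.37 RPM in WT and to 14.4 to 22 RPM in the knockouts, and Usp9y had no read in WT. Their part in the results below was not tested, and in comparisons with WT a difference of cell line and one of genotype cannot be told apart.

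The Hox genes were close to silent in every group. Of the 38, 36 never exceeded 1 RPM, and Hoxb13 and Hoxc13 did so in 2 libraries each. At least 1 library had no read for 31 members, and 19 members never exceeded 10 reads in a library. The median was 3 reads per gene and library. All 16 libraries together gave 3723 reads of these genes, and 43.0% of them fell on 5 genes. In bulk RNA, a few cells with a high level and many cells with a trace cannot be told apart.

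**Figure D1:**
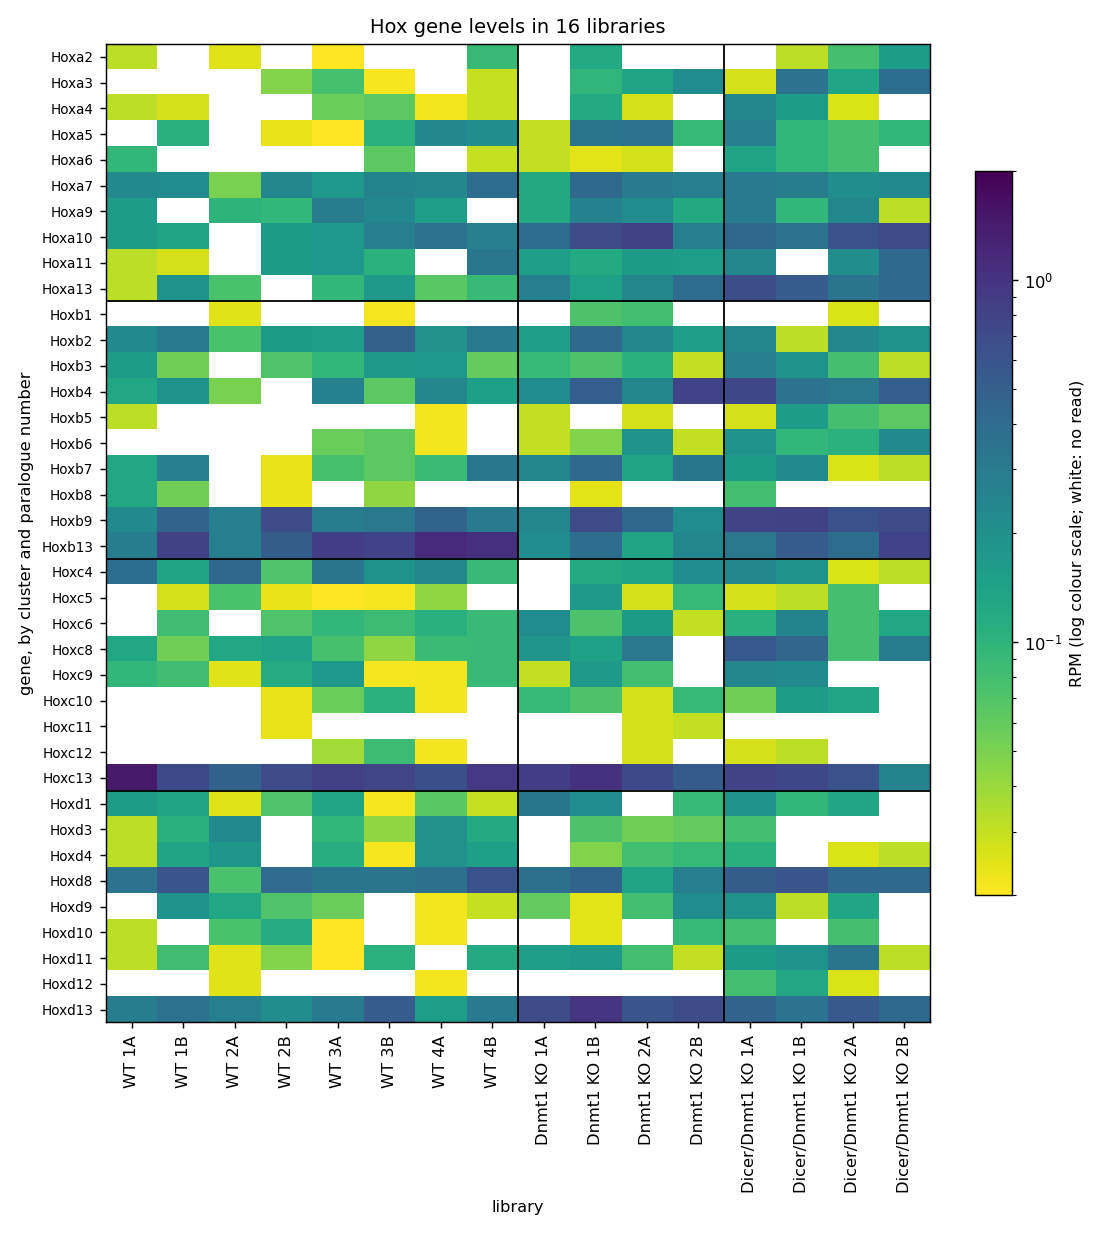
Level of each of the 38 Hox genes (rows, by cluster and paralogue number) in each of the 16 libraries (columns, by group), in RPM on a log colour scale with white for no read. Hoxc13 is the darkest row, Hoxb13, Hoxb9, Hoxd13 and Hoxd8 are dark in most libraries, and rows such as Hoxb1, Hoxb8, Hoxc11 and Hoxd12 are mostly white.

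Per kilobase of transcript, so that genes can be compared, the most posterior genes of 2 clusters had the highest levels of the 38, Hoxc13 at 0.305 and Hoxb13 at 0.248 reads per kb and per M reads over the 16 libraries. Hoxb9 (0.182), Hoxd13 (0.180) and Hoxd8 (0.149) came after them. At the other end Hoxc11 had 3 reads over all libraries, Hoxb1 9, Hoxc12 10, Hoxd12 10 and Hoxb8 13. Low levels did not follow the order of the clusters, since Hoxc13 was at the top and its neighbours Hoxc12 and Hoxc11 at the bottom of the range.

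By position class, the 7 anterior members (paralogue numbers 1 to 3) averaged 0.0503 to 0.109 RPM per gene in the WT libraries, with a median of 0.0856. The 15 central members (4 to 8) averaged 0.0653 to 0.145 RPM, and the 16 posterior members (9 to 13) 0.11 to 0.22. Without a correction for length these are averages over unlike genes. In Dnmt1 KO the class averages were 0.0779 to 0.151, 0.0973 to 0.192 and 0.193 to 0.298 RPM. In Dicer/Dnmt1 KO they were 0.0971 to 0.116, 0.108 to 0.248 and 0.234 to 0.302 RPM. The posterior class of Dicer/Dnmt1 KO lay above every WT library, whereas the anterior and central classes overlapped with WT.

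Summed over all members, the Hox level was 3.11 to 6.31 RPM in the WT libraries (5.14 ± 1.01, SD, n = 8), 5.32 to 8.71 RPM in those of Dnmt1 KO (6.57 ± 1.49, n = 4) and 6.55 to 9.37 RPM in those of Dicer/Dnmt1 KO (7.59 ± 1.32, n = 4). WT 4B was the highest WT library, below the lowest of Dicer/Dnmt1 KO, and Dnmt1 KO overlapped with both other groups. HoxA had the clearest separation, with 0.251 to 1.46 RPM in WT, 1.12 to 2.33 in Dnmt1 KO and 1.98 to 2.62 in Dicer/Dnmt1 KO. HoxB ranged over 0.703 to 2.32, 1.22 to 2.62 and 1.88 to 2.83 RPM, and its groups overlapped. HoxC (1.08 to 2.03, 1.00 to 1.76 and 0.699 to 2.08 RPM) and HoxD (0.916 to 1.6, 1.02 to 2.0 and 0.89 to 1.86 RPM) also overlapped throughout. The sum of the feeder fibroblast list was likewise highest in Dicer/Dnmt1 KO, and its part in the Hox sums was not tested.

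**Figure D2:**
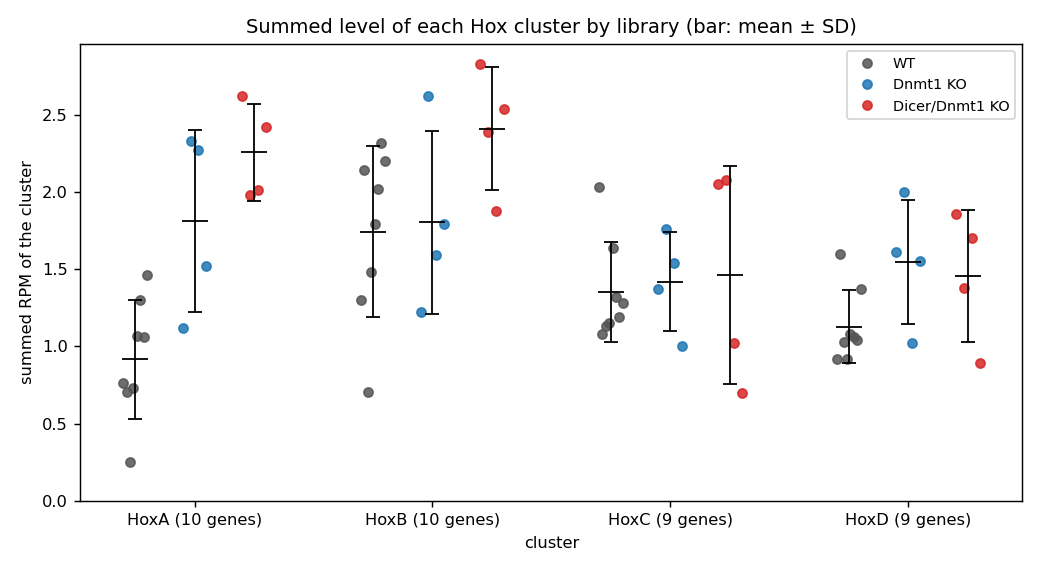
Summed RPM of each Hox cluster (horizontal axis) in each library (points, coloured by group), with bars for the mean ± SD. The 4 Dicer/Dnmt1 KO libraries lie above the 8 WT libraries for HoxA, from 1.98 RPM up against at most 1.46, and overlap with the other groups for HoxC and HoxD.

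None of the 38 reached the filter used for testing, a level over 1 RPM in at least 4 libraries. The 12892 genes that did are 49.3% of the table and include 56.2% of its protein-coding genes. The Hox values are near the counting limit, and a fit over all 21545 genes with at least 1 read stands in for the filtered one. In this fit a count of 0 enters as 0.9 read, as deposited, so fold changes of genes with many zeros depend on that value and on depth. Among all genes of this wider fit, 17.3% rose and 10.9% fell in Dnmt1 KO against WT, 23.8% rose and 19% fell in Dicer/Dnmt1 KO against WT, and 9.69% rose and 11.3% fell between the knockouts. Genes below the filter are the nearer reference for the members: of those 8653, 10.9%, 14.4% and 2.39% rose in the same order of comparisons.

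In Dnmt1 KO against WT, 5 of 38 Hox genes rose and 1 fell (15.8% called, beside 14% of the genes below the filter). At an unadjusted p under 0.05 there were 8, and the share of all genes at that threshold was not taken. Those that rose were Hoxd13, Hoxa13, Hoxb4, Hoxa10 and Hoxb1, and the 1 that fell was Hoxb13. The estimates of 26 of 38 members lay above 0 (68.4%, beside 61.4% of all genes), with a median of 0.44 beside 0.14. Those 26 include Hoxd12 at 0.14, with no read in Dnmt1 KO. The share of Hox genes called was thus near that of other genes at such low levels. With A and B averaged 3 members were called, and with an estimated correlation between A and B 1 was.

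Hoxd13, a posterior gene that shapes digits and the genital tubercle, is the first gene of HoxD (ENSMUSG00000001819, chromosome 2, 74506367 to 74509656, plus strand, 2 exons). It measured 0.152 to 0.532 RPM in WT, with a median of 0.292 (7 to 25 reads). The Dnmt1 KO libraries had 0.699, 0.986, 0.593 and 0.697 RPM (23, 41, 22 and 23 reads), all above every WT library. The difference was 2.57-fold (log2 fold change 1.36, SE 0.31, limma BH adjusted p = 0.00283). It kept its call with A and B averaged (adjusted p = 0.0468), with an estimated correlation (adjusted p = 0.0335), and without each library in turn. In Dicer/Dnmt1 KO it measured 0.459, 0.346, 0.549 and 0.413 RPM, which lay below every Dnmt1 KO library but overlapped with WT. Neither the difference from WT (log2 fold change 0.61, limma adjusted p = 0.118) nor that from Dnmt1 KO (-0.75, adjusted p = 0.156) passed the threshold.

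Hoxa13 and Hoxd13 share the paralogue number that closes both clusters at the 5′ end, and Hoxa13 acts with Hoxd13 in the limb bud and hindgut. Hoxa13 (ENSMUSG00000038203, chromosome 6, 52207693 to 52210874, minus strand, 2 exons) had 0 to 8 reads in the WT libraries, or 0 to 0.19 RPM with a median of 0.0823. Dnmt1 KO had 0.274, 0.144, 0.243 and 0.394 RPM, and Dicer/Dnmt1 KO 0.675, 0.535, 0.340 and 0.413 RPM. Group means therefore stood at 0.0896 ± 0.0641 (n = 8), 0.264 ± 0.103 (n = 4) and 0.491 ± 0.147 RPM (n = 4). In Dicer/Dnmt1 KO it was 6.41-fold higher than in WT, with no overlap (log2 fold change 2.68, SE 0.51, limma BH adjusted p = 0.000428). This was the largest estimate among the members, and it held with A and B averaged (adjusted p = 0.00462), with an estimated correlation (adjusted p = 0.00934) and without each library in turn. In Dnmt1 KO it was 3.35-fold higher (log2 fold change 1.74, SE 0.51, limma adjusted p = 0.0165), with 1 library inside the WT range. That call was lost with an estimated correlation (adjusted p = 0.119) and without Dnmt1 KO 2B (adjusted p = 0.0675). Between the knockouts Hoxa13 differed by 0.94 on the log2 scale (limma adjusted p = 0.310), which did not pass the threshold.

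The promoters of these genes are printed for their density of CpG, the dinucleotide on which Dnmt1 acts, shown in capitals. Windows are the 250 bases before the start in RefSeq for GRCm38.p6, read along the gene's own strand, and 22 of the 38 members have 24 such windows in the table used. Hoxa13 has 35 CpG, a number that 2.97% of the 32841 promoters reach, Hoxd13 has 31 (5.19%) and Hoxb4, described below, 14 (29.4%). The median was 12.5 over the member windows and 6.0 over all promoters, and 58.3% of member windows had over 10 CpG beside 35.6% of all. The genes printed are all among those called in Dnmt1 KO against WT. Of other members, Hoxa5 (28 CpG), Hoxa6 (24) and Hoxd1 (24) were not called there. Hoxb1 (7) and Hoxa10 (windows of 20 and 7) were. DNA methylation was not analysed here, and a part of CpG density in the differences was not tested.
Hoxa13, chr6:52260881-52261130, minus strand: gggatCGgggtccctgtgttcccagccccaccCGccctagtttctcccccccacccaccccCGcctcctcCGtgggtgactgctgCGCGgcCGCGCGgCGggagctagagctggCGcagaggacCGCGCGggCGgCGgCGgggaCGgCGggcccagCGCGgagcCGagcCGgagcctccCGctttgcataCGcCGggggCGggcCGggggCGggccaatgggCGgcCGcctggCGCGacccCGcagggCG
Hoxd13, chr2:74667975-74668224, plus strand: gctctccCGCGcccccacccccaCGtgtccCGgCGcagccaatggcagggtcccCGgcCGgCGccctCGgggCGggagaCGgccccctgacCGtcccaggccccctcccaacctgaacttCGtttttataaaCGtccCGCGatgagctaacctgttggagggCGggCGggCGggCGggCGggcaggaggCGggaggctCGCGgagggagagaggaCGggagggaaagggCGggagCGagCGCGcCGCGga
Hoxb4, chr11:96318017-96318266, plus strand: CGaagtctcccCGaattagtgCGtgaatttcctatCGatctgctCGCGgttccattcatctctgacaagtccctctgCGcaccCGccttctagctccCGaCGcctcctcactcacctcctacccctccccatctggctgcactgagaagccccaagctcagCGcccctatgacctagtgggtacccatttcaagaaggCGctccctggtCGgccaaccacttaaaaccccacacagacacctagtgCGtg

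**Figure D3:**
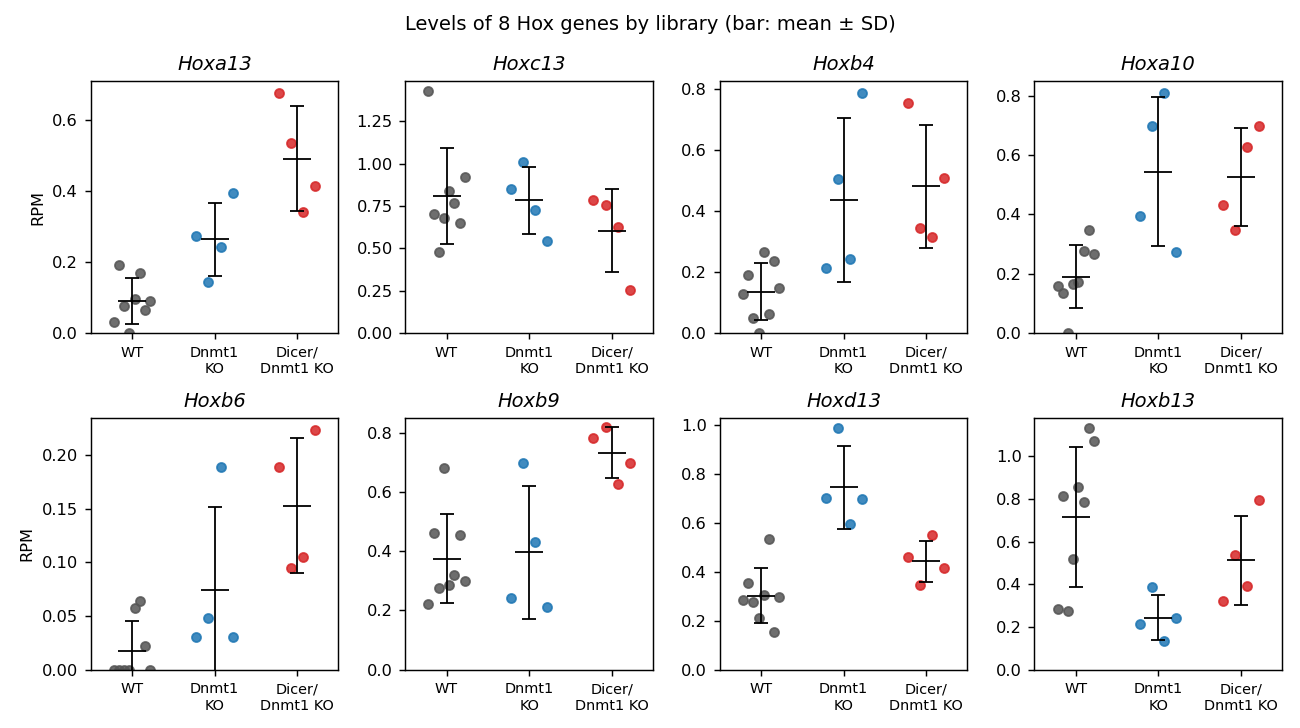
RPM of 8 Hox genes in each library (points), by group, with bars for the mean ± SD and a separate vertical axis for each gene. Hoxa13 and Hoxb6 in Dicer/Dnmt1 KO and Hoxd13 in Dnmt1 KO lie wholly above WT, while Hoxb13 is lower in Dnmt1 KO than in most WT libraries.

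Hoxb13, the posterior end of HoxB and a gene of the prostate and tail bud, was the only member to fall. Its WT libraries spread over 0.276 to 1.13 RPM with a median of 0.800 (ENSMUSG00000049604, chromosome 11, 96055630 to 96058761, plus strand, 2 exons). Dnmt1 KO had 0.213, 0.385, 0.135 and 0.242 RPM (7, 16, 5 and 8 reads), and Dicer/Dnmt1 KO 0.324, 0.535, 0.392 and 0.795 RPM. WT 1A and WT 2A, at 0.285 and 0.276 RPM, overlapped with Dnmt1 KO, and the WT libraries numbered 3 and 4 were high at 0.787 to 1.13 RPM. The fall in Dnmt1 KO was to 0.357 of the WT level (log2 fold change -1.48, SE 0.43, limma BH adjusted p = 0.0149). It was lost with A and B averaged (adjusted p = 0.0775), with an estimated correlation (adjusted p = 0.0898), against WT numbers 1 and 2 only (-0.91, adjusted p = 0.179) and without Dnmt1 KO 2A (adjusted p = 0.0696).

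Hoxb4, known for expanding blood stem cells, and Hoxa10, which patterns the uterus and trunk, had much the same estimate in both knockouts against the shared WT libraries. Hoxb4 measured 0 to 0.266 RPM in WT (median 0.138), 0.213, 0.505, 0.243 and 0.788 RPM in Dnmt1 KO and 0.756, 0.346, 0.314 and 0.509 RPM in Dicer/Dnmt1 KO. In Dnmt1 KO it was 3.59-fold higher than WT (log2 fold change 1.84, SE 0.61, limma adjusted p = 0.0307). For Dicer/Dnmt1 KO the difference was 4.28-fold (2.10, SE 0.61, limma adjusted p = 0.00973), and the groups did not overlap. The Dnmt1 KO call was lost with A and B averaged (adjusted p = 0.101), with an estimated correlation (adjusted p = 0.136), against WT numbers 3 and 4 only (1.27, adjusted p = 0.0953) and without WT 2A, WT 3B, Dnmt1 KO 1B or Dnmt1 KO 2B (adjusted p = 0.0516 to 0.123). The Dicer/Dnmt1 KO call held with A and B averaged (adjusted p = 0.0418) and was lost with an estimated correlation (adjusted p = 0.0566).

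Hoxa10 measured 0 to 0.346 RPM in WT (median 0.168), 0.395, 0.698, 0.809 and 0.273 RPM in Dnmt1 KO and 0.432, 0.346, 0.627 and 0.699 RPM in Dicer/Dnmt1 KO. WT 4A was the highest WT library, level with the lowest of Dicer/Dnmt1 KO. The Dnmt1 KO estimate was 1.67 (SE 0.57, limma adjusted p = 0.0364), and the Dicer/Dnmt1 KO estimate was 1.70 (SE 0.57, adjusted p = 0.0231). With A and B averaged both were lost (adjusted p = 0.108 and 0.067), and likewise with an estimated correlation (adjusted p = 0.159 and 0.108). When the WT libraries were limited to numbers 3 and 4, the estimates were 0.95 (adjusted p = 0.1) and 0.97 (adjusted p = 0.0707). The Dnmt1 KO call was also lost without WT 1B, WT 3A or Dnmt1 KO 1A, 1B or 2A (adjusted p = 0.0503 to 0.124). The Dicer/Dnmt1 KO call was lost without Dicer/Dnmt1 KO 2A or 2B (0.0619 and 0.069).

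Hoxb1, a hindbrain gene that answers retinoic acid, passed the threshold in Dnmt1 KO (limma adjusted p = 0.00906) on very few reads. It had 1 read in WT 2A and 1 in WT 3B, and 3 in each of Dnmt1 KO 1B and 2A. No library of either group was above 3 reads, so no fold is given, and the call was lost without Dnmt1 KO 2A (adjusted p = 0.0532), with an estimated correlation (adjusted p = 0.116), with a pseudocount of 0.1 RPM (adjusted p = 0.113) and against WT numbers 1 and 2 only (adjusted p = 0.0624).

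From WT to Dicer/Dnmt1 KO, 10 of 38 Hox genes rose and none fell (26.3% called, beside 19.1% of the genes below the filter and 23.8% higher over all genes of the fit). The unadjusted p was under 0.05 for 12 members, again without a share of all genes to set beside it. Estimates lay above 0 for 30 of 38 (78.9%, beside 60.8% of all genes), and the median was 0.54 beside 0.18. Those 30 include Hoxc11 at 0.22, with no read in Dicer/Dnmt1 KO and 1 in WT. The genes that rose were Hoxa3, Hoxa6, Hoxa10 and Hoxa13 of HoxA, Hoxb4, Hoxb5, Hoxb6 and Hoxb9 of HoxB, Hoxc8 of HoxC and Hoxd12 of HoxD. Hoxa13, Hoxb4 and Hoxb6 did not overlap with WT, and the share of all genes without overlap was not taken. Leaving out WT 4A and WT 4B gave 8 calls, and an estimated correlation between A and B gave 4.

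Central genes, which pattern the trunk and its vertebrae, made up 5 of the 10, and 15 of the 38 members are central. Whether the calls favour a position class was not tested. Hoxb6 (ENSMUSG00000000690) had at most 3 reads in any WT library and none in 5 of the 8. Dicer/Dnmt1 KO had 7, 3, 4 and 7 reads, or 0.189, 0.0944, 0.105 and 0.223 RPM, all above WT on the RPM scale. The estimate was 2.24 (SE 0.46, limma adjusted p = 0.000807), and it held with A and B averaged (adjusted p = 0.00641) and with an estimated correlation (adjusted p = 0.0128). Hoxb5, its neighbour, had 1 read in each of WT 1A and WT 4A and none elsewhere in WT, against 1, 5, 3 and 2 reads in Dicer/Dnmt1 KO (estimate 1.58, limma adjusted p = 0.000681). Hoxb5 was also the 1 member higher in Dicer/Dnmt1 KO than in Dnmt1 KO, described further on. The antisense gene 0610040B09Rik, listed in RefSeq as Hoxb5os, overlaps both. It had no read in WT or Dnmt1 KO and up to 3 in Dicer/Dnmt1 KO (estimate 0.75, limma adjusted p = 0.0216), and its reads and theirs may not be separable, since counting by strand is not given.

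Hoxc8, which patterns thoracic and limb motor neurons, had 2 to 6 reads in WT and 21, 14, 3 and 9 in Dicer/Dnmt1 KO. Its estimate of 1.67 (SE 0.60, limma adjusted p = 0.033) rested on libraries 1A and 1B: without 1A it was 1.32 (adjusted p = 0.128) and without 1B 1.44 (adjusted p = 0.106). The call was also lost without Dicer/Dnmt1 KO 2B (adjusted p = 0.0677) and without WT 1B, 3A or 3B (adjusted p = 0.0503 to 0.0581). It did not hold with an estimated correlation (adjusted p = 0.163), against WT numbers 1 and 2 only (adjusted p = 0.188) or without WT 4A and 4B together (adjusted p = 0.0563). Hoxa6 had 0 to 3 reads in WT and 5, 3, 3 and 0 in Dicer/Dnmt1 KO (estimate 1.27, SE 0.45, limma adjusted p = 0.0295). It was lost without Dicer/Dnmt1 KO 1A, 1B or 2A and without WT 3A or 4A (adjusted p = 0.0504 to 0.124). An estimated correlation (adjusted p = 0.149), WT numbers 1 and 2 only (adjusted p = 0.0941), omission of WT 4A and 4B together (adjusted p = 0.0673) and a pseudocount of 0.1 RPM (0.5, adjusted p = 0.0767) each ended the call too. Hoxa3, an anterior gene of the pharyngeal arches and thymus, had 0 to 4 reads in WT and 1, 11, 5 and 12 in Dicer/Dnmt1 KO (estimate 2.28, SE 0.64, limma adjusted p = 0.00791), a call lost with an estimated correlation (adjusted p = 0.0762). The annotated gene spans Hoxa4, Hoxa5 and Hoxa6 on the same strand, and reads in the shared stretch may not be attributable to 1 gene.

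Hoxb9, a posterior gene which acts in the rib cage and limbs, measured 0.222 to 0.681 RPM in WT (median 0.309), 0.243, 0.698, 0.431 and 0.212 RPM in Dnmt1 KO and 0.783, 0.818, 0.627 and 0.699 RPM in Dicer/Dnmt1 KO. The Dicer/Dnmt1 KO libraries were close together, and only WT 2B reached into their range. The difference from WT was 2.07-fold (log2 fold change 1.05, SE 0.35, limma adjusted p = 0.0236), and it was lost with A and B averaged (adjusted p = 0.0533), with an estimated correlation (adjusted p = 0.156), against WT numbers 1 and 2 only (adjusted p = 0.118) and without Dicer/Dnmt1 KO 1A or 1B (0.0591 and 0.0636). Hoxd12 had 1 read in each of WT 2A and WT 4A, none in Dnmt1 KO and 3, 4, 1 and 0 in Dicer/Dnmt1 KO (estimate 1.21, limma adjusted p = 0.00634). The Hoxd12 call was lost with A and B averaged (adjusted p = 0.0653) and against WT numbers 1 and 2 only (adjusted p = 0.0569).

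**Figure D4:**
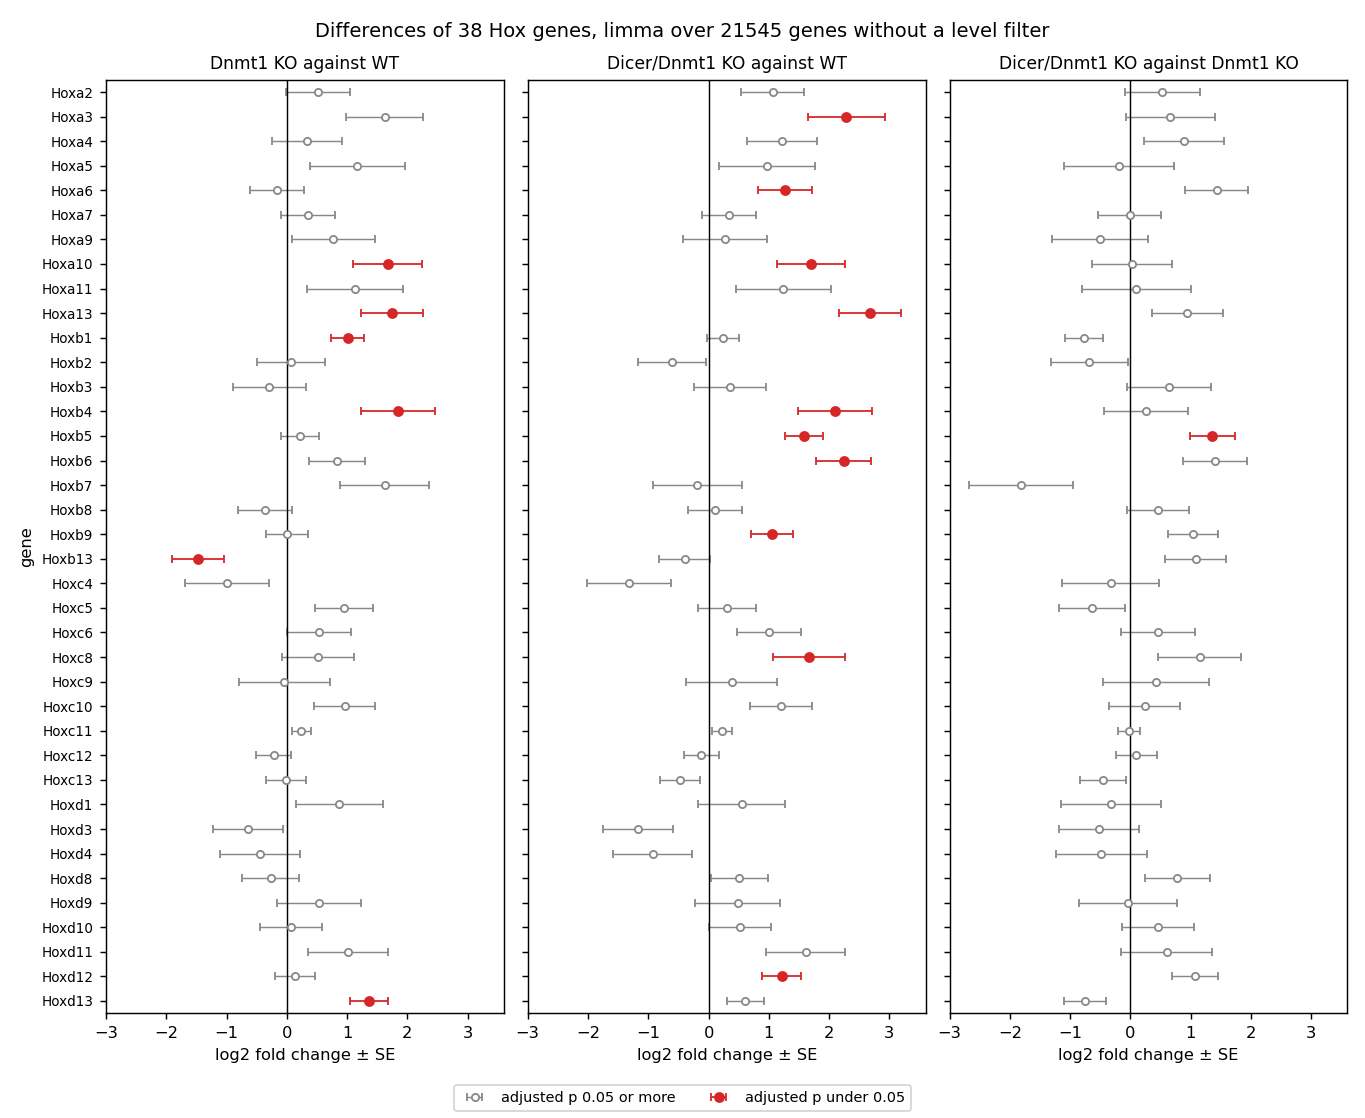
Log2 fold change ± SE of each of the 38 Hox genes in the 3 comparisons, from limma over 21545 genes without a filter on level, with filled red points where the BH adjusted p is under 0.05. There are 6 such points in Dnmt1 KO against WT (1 below 0), 10 in Dicer/Dnmt1 KO against WT (all above 0) and 1 in Dicer/Dnmt1 KO against Dnmt1 KO.

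The remaining members passed the threshold in no comparison of the wider fit. Hoxd11 came closest, with an estimate of 1.61 in Dicer/Dnmt1 KO against WT (limma adjusted p = 0.0587) from 0 to 5 reads in WT and 6, 6, 13 and 1 in Dicer/Dnmt1 KO. The lowest estimates against WT were those of Hoxc4 (-1.32, adjusted p = 0.141) and Hoxd3 (-1.17, adjusted p = 0.114), both in Dicer/Dnmt1 KO. Hoxc13, the 5′ end of HoxC and a gene of hair follicles, averaged 0.808 ± 0.283 RPM over 8 WT libraries, 0.784 ± 0.196 RPM over 4 Dnmt1 KO libraries and 0.605 ± 0.243 RPM over 4 Dicer/Dnmt1 KO libraries, and differed by less than this spread. Hoxd8 likewise measured 0.387 ± 0.171, 0.307 ± 0.137 and 0.486 ± 0.0877 RPM.

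The comparison of Dicer/Dnmt1 KO with Dnmt1 KO asks what loss of Dicer adds where Dnmt1 is already missing. In the wider fit 1 of 38 members rose, Hoxb5, and none fell (2.6% called, beside 5.30% of the genes below the filter). The unadjusted p was under 0.05 for 8 members, here too without a share of all genes to set beside it. Hoxb5 had 1, 0, 1 and 0 reads in Dnmt1 KO and 1, 5, 3 and 2 in Dicer/Dnmt1 KO (estimate 1.36, SE 0.37, limma adjusted p = 0.0135), which was lost with an estimated correlation (adjusted p = 0.147). Estimates lay above 0 for 23 of 38 members (60.5%, beside 54.8% of all genes), with a median of 0.25 beside 0.02, and reached from -1.81 for Hoxb7 (adjusted p = 0.155) to 1.43 for Hoxa6 (adjusted p = 0.0587).

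With A and B averaged, 13.1%, 26.5% and 4.65% of all genes of the wider fit were called in the 3 comparisons in that order, and 3, 8 and 1 of the Hox genes were. The members with no more than 3 reads in any library of both groups numbered 5, 3 and 6. Without them the member medians were 0.52, 0.61 and 0.34 on the log2 scale.

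A match to the miR-196 seed (ACTACCT, on the message strand) was present in the 3′ UTR of 8 Hox genes, 21.1% of the 38, beside 5.31% of the 19921 genes with an annotated 3′ UTR. They are Hoxa4, Hoxa5, Hoxa7 (4 matches), Hoxa9, Hoxb1, Hoxb6, Hoxb7 and Hoxc8 (3 matches). The printed Hoxb8 site is not among them, because its wobble pair lies in the seed and only exact matches were counted. Hox 3′ UTRs were longer at a median of 995 bases than the 819 of all genes. Between Dicer/Dnmt1 KO and Dnmt1 KO, the estimates of these 8 genes ran from -1.81 to 1.41 with a median of -0.10. Of the 8, 3 lay above 0 and 5 below, none passed the threshold, and the lowest adjusted p by limma was 0.0708 for Hoxb6. A change common to the genes with a miR-196 match was thus not detectable at this depth. Hoxb8 itself had 4, 2, 0, 1, 0, 2, 0 and 0 reads in WT, 0, 1, 0 and 0 in Dnmt1 KO and 3, 0, 0 and 0 in Dicer/Dnmt1 KO.

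A match to the miR-10 seed (ACAGGGT) occurred in 1 of the 38, Hoxd1 (2.63%, beside 10.9% of all genes), whose estimate in Dicer/Dnmt1 KO against Dnmt1 KO was -0.32 (limma adjusted p = 0.890). The miR-615-3p match (GGCTCGG) occurred in Hoxb4 alone (2.63%, beside 2.22%). Of the miRNA genes in the table, Mir10a and Mir615 had no read in any library, and Mir196a-1 had 0 to 2. Mature miRNAs are too short for these libraries, so this says nothing of their level.

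The nearest protein-coding genes outside the clusters, 3 on each side, served to compare the clusters with their surroundings, in the fit with the filter. In that fit 23.5% of the 12892 genes rose and 17.5% fell from WT to Dnmt1 KO, 31.9% and 30.1% from WT to Dicer/Dnmt1 KO, and 16.9% and 19.4% from Dnmt1 KO to Dicer/Dnmt1 KO. Of these 24, 20 were tested, with 3 up and 3 down from WT to Dnmt1 KO, 4 up and 9 down from WT to Dicer/Dnmt1 KO, and 4 up and 7 down between the knockouts. The largest change lay beside HoxB. Calcoco2, an autophagy receptor encoded 82352 bases from Hoxb13, averaged 7.03 ± 1.42 RPM over 8 WT libraries, 12 ± 0.982 RPM over 4 Dnmt1 KO libraries and 30.5 ± 2.03 RPM over 4 Dicer/Dnmt1 KO libraries. Its reads numbered 169 to 395, 394 to 481 and 881 to 1233, so that Dicer/Dnmt1 KO lay above all other libraries. It was 1.74-fold higher than WT in Dnmt1 KO (limma adjusted p = 0.000134), 4.41-fold in Dicer/Dnmt1 KO (6.33e-10) and 2.54-fold between the knockouts (5.73e-06).

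Ttll6, a tubulin glutamylase gene only 28865 bases from Hoxb13, had 2.78 ± 0.693, 2.34 ± 0.151 and 7.82 ± 0.476 RPM in the same groups. It rose in Dicer/Dnmt1 KO against WT (log2 fold change 1.53, limma adjusted p = 4.11e-07) and against Dnmt1 KO (1.74, adjusted p = 2.91e-06), and did not pass the threshold in Dnmt1 KO against WT (-0.21, adjusted p = 0.312). Hoxb13, the Hox gene nearest to both, measured 0.511 ± 0.208 RPM in Dicer/Dnmt1 KO (n = 4), below its WT mean of 0.717 ± 0.327 (n = 8). On the far side of HoxA, Evx1, a homeobox gene 52618 bases from Hoxa13, had 0 to 9 reads per library. Evx2, 8449 bases from Hoxd13, had at most 1.

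**Figure D5:**
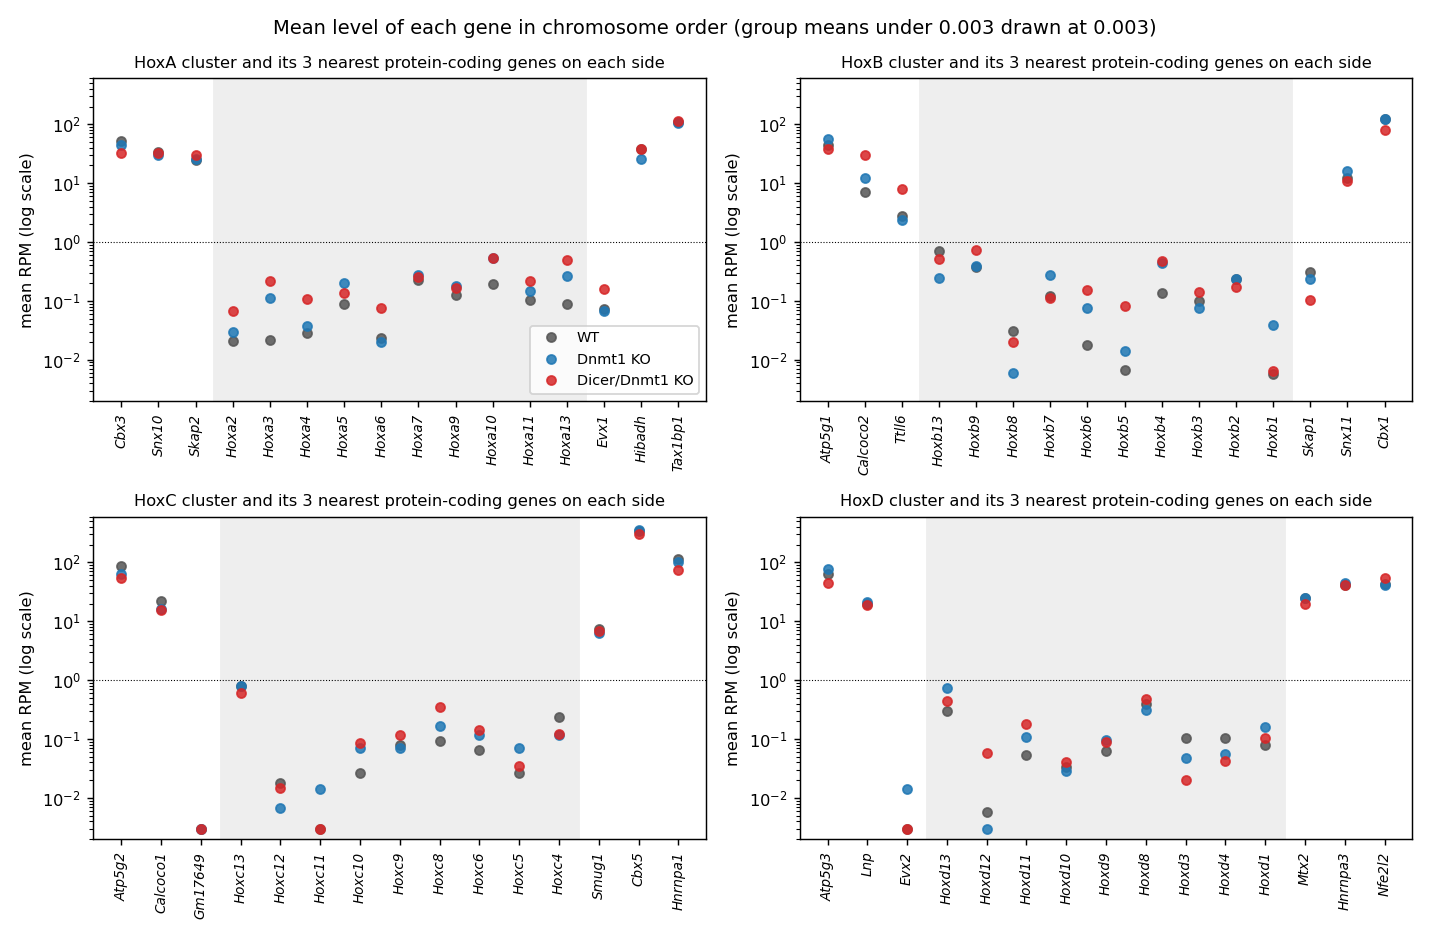
Mean RPM (log scale) in each group for the members of each Hox cluster (shaded) and the 3 nearest protein-coding genes on each side, in chromosome order. Most flanking genes lie above the dotted line at 1 RPM and all 38 Hox genes below it, and Calcoco2 and Ttll6 beside HoxB are highest in Dicer/Dnmt1 KO.

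Within these spans the table holds 23 genes that are not Hox genes, and 1 of them was tested. This was Gm53, between Hoxb13 and Hoxb9, with 48 to 111 reads in WT, 56 to 85 in Dnmt1 KO and 80 to 111 in Dicer/Dnmt1 KO. It was 1.37-fold higher in Dicer/Dnmt1 KO than in WT (log2 fold change 0.45, SE 0.16, limma adjusted p = 0.023). Of 14 named noncoding genes of the clusters 6 were in the table under those names, and none passed the filter. In all, 25 of the 38 Hox genes overlap another annotated gene, 18 on their own strand and 12 on the other. Whether reads were counted by strand and how such reads were split is not given in the sources used here.

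The machinery that keeps Hox clusters silent was itself expressed. Over all 12892 genes of the filtered fit 41.0% were called from WT to Dnmt1 KO, 61.9% from WT to Dicer/Dnmt1 KO and 36.3% between the knockouts, and each list below is to be read against these shares. Of 32 tested Polycomb genes, 12 rose and 3 fell from WT to Dnmt1 KO, 17 rose and 7 fell from WT to Dicer/Dnmt1 KO, and 5 rose and 6 fell from Dnmt1 KO to Dicer/Dnmt1 KO (46.9%, 75.0% and 34.4% called). Among the 32, 1 gene reached the filter only with the knockout libraries, and it is among those that rose in both comparisons with WT. Bmi1, a subunit of Polycomb complex PRC1, had a mean of 2.79 RPM in WT, 7.72 RPM in Dnmt1 KO and 12 RPM in Dicer/Dnmt1 KO (log2 fold changes 1.49, limma adjusted p = 4.44e-07, and 2.12, adjusted p = 2.56e-09). Pcgf1 went the other way, with log2 fold changes of -0.77 (limma adjusted p = 0.000531) and -1.28 (1.36e-06). Eed, a core subunit of the H3K27 methyltransferase PRC2, was lower in Dicer/Dnmt1 KO than in WT (-0.66, limma adjusted p = 0.000134) and than in Dnmt1 KO (-0.53, adjusted p = 0.00647). Ezh1, a methyltransferase of PRC2, fell from 22.5 RPM in WT to 15.7 in Dnmt1 KO and stood at 28.6 in Dicer/Dnmt1 KO, a rise of 0.86 between the knockouts (limma adjusted p = 6.32e-06).

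Of 12 tested genes for Trithorax subunits and H3K27 demethylases, 0 rose and 2 fell in the first of these comparisons, 3 and 4 in the second, and 1 and 3 in the third (16.7%, 58.3% and 33.3% called). Mll1, the H3K4 methyltransferase classically tied to Hox genes, was 2.21-fold higher in Dicer/Dnmt1 KO than in WT (log2 fold change 1.14, limma adjusted p = 0.00576). Kdm6b, which removes H3K27 methylation, was 2.08-fold higher (1.06, adjusted p = 0.0233), while the shared subunits Wdr5 (-0.66, adjusted p = 1.11e-06) and Dpy30 (-0.73, adjusted p = 3.61e-05) were lower. The 9 genes for TALE homeodomain cofactors, which bind DNA together with Hox proteins, were all tested. Of these 1 rose and 3 fell in the first comparison, 3 and 3 in the second, and 3 and 1 in the third (44.4%, 66.7% and 44.4% called). Pknox2, at 0.863, 1.67 and 2.97 RPM in WT and the single and double knockout, reached the filter only with the knockout libraries. It is the 1 gene that rose in the first comparison and is among the 3 that rose in the second.

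Of 12 tested genes among 21 for Cdx factors and retinoic acid signalling, 4 were higher and 2 lower in each knockout against WT, and 2 and 2 between the knockouts (6, 6 and 4 of the 12 called in all). The counts against WT include Cdx2 as higher in Dnmt1 KO and Cdx1 as lower in Dicer/Dnmt1 KO. Cdx2 reached the filter only with the knockout libraries and Cdx1 only with the WT libraries, so these directions are a description. Cdx2, an activator of Hox genes in the tail bud and also a trophoblast marker, averaged 0.539 RPM in WT, 1.18 RPM in Dnmt1 KO and 0.390 RPM in Dicer/Dnmt1 KO. It reached the filter only with the knockout libraries, so these levels are a description. Aldh1a2, which makes retinoic acid, was 2.46-fold higher in Dicer/Dnmt1 KO than in WT (1.30, limma adjusted p = 1.42e-06), and Stra8, which retinoic acid induces in germ cells, was 4.78-fold (adjusted p = 0.00027) and 5.92-fold higher (3.78e-05) in the 2 knockouts.

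Of 58 other homeobox genes of development 12 passed the filter, 4 of them only with the knockout libraries, so no count of them is given. Meox1 and Nkx2-9 are 2 of those 4, and their differences from WT are a description. Meox1, a somite gene, had 0.164, 1.90 and 1.61 RPM in WT, Dnmt1 KO and Dicer/Dnmt1 KO, and Nkx2-9, a gene of the ventral neural tube, 0.243, 3.14 and 2.77 RPM. None of the 38 Hox genes had a mean over 1 RPM in any group.

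Marker lists of other cell types and of ESCs gave the following counts over the same comparisons, in the order Dnmt1 KO against WT, Dicer/Dnmt1 KO against WT, and between the knockouts. Of 4 tested mesoderm and primitive streak genes, Hand1 reached the filter only with the knockout libraries and Fgf8 only with the WT libraries. Their counts are therefore not given. Of 5 neural genes, 0, 2 and 3 were higher and 2, 2 and 0 lower. Of 6 endoderm and 6 trophoblast genes 5 and 4 passed the filter, and 3 of each only with the knockout libraries, so their counts are not given. Pluripotency genes gave 0, 0 and 3 higher and 4, 2 and 2 lower of 10.

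Of 17 tested fibroblast genes, 10 rose and 1 fell from WT to Dnmt1 KO, 12 and 1 from WT to Dicer/Dnmt1 KO, and 0 and 1 between the knockouts (64.7%, 76.5% and 5.88% called). Of the 20 listed 3 did not reach the filter, and 1 of the 17 reached it only with the knockout libraries. Col1a1, a collagen of fibroblasts and bone, had mean levels of 7.69, 19.2 and 24.4 RPM in WT, Dnmt1 KO and Dicer/Dnmt1 KO (log2 fold changes 1.40, limma adjusted p = 0.00131, and 1.72, adjusted p = 0.000113). Mmp2, another gene of the list, fell by 0.79 (limma adjusted p = 0.000137) and 1.19 (7.27e-07). Fibroblasts express Hox genes of several clusters, and the part of such cells in the Hox values above was not tested.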

How the data were processed

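Total RNA depleted of rRNA had been sequenced from both ends over 100 bases from 16 ESC libraries. Per the labels the authors used Trim Galore 0.3.5 and TopHat2 2.0.11, and per the methods they discarded alignments of mapping quality under 20 and quantified genes in SeqMonk. The deposited unit is log2 RPM, with a gene without reads written as 0.9 read. Both GRCm38 and NCBIM37 are named as builds, and the coordinates of all 38 members were identical to those of GENCODE M1 on NCBIM37. A further 35 value columns are of other samples and were not used. Whole reads (within 0.1 read) were recovered for 100% of low values, but the unit is log2, so limma was used and no count model.

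limma 3.58.1 (R 4.3.3) fitted a mean per group to the log2 RPM of all 16 libraries with an intensity trend, for genes over 1 RPM in at least 4 libraries, with Benjamini-Hochberg (BH) adjustment over the 12892 genes tested, two-sided, at 0.05. The fit was tested on simulated data. A fit without the filter (21545 genes with a read) was used for members below it. Alternatives were a pseudocount of 1 RPM, quantile normalization, median centring, A and B of a number averaged or with an estimated correlation, the replicate number as a block, subsets of the WT libraries, the 2 groups alone, a minimum fold of 2, and leaving out each library. Those applied without the filter, the omission of WT 4A and WT 4B, and a filter of 5 reads in 4 libraries were added after seeing the data. Every member was accounted for, except 1 gene that fits the symbol rule and is not reported here. Of each gene list, at most the 2 called genes with the highest and the 2 with the lowest change were open to naming, and among genes inside and beside the clusters some more are named that were chosen after their values were seen. The Hox genes, the gene lists and the tests were chosen with earlier results of these data known. Exon numbers and lengths are those of the longest transcript in GENCODE M1. Sequences came from RefSeq, and the Hoxb8 site and 3′ UTRs from NCBIM37.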

Additional observations from a re-analysis of the deposited data

Results flagged for a closer look

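In Dicer/Dnmt1 KO, Hoxb1 was at 0.0261 RPM in library 2A, which is 1 read, and at 0 in the other 3 libraries. In Dnmt1 KO, Hoxb6 was at 0.189 RPM in library 2A, while the other 3 libraries reached from 0.0303 to 0.0481 RPM, a gap of 0.888 of the group's range which is above Dixon's critical value at 95%. These were 2 flags among 60 groups over 20 measures, and chance flags about 1 in 20 groups.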

How the results depend on the processing

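Counts of Hox genes called are given as Dnmt1 KO against WT, Dicer/Dnmt1 KO against WT, and Dicer/Dnmt1 KO against Dnmt1 KO. With the filter none of the 38 genes was tested, so the counts were 0 under every alternative that kept it, including each omission of a library. They became 6, 10 and 1 without the filter and 5, 6 and 1 with 5 reads in 4 libraries, since more members are then tested.

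Without the filter, averaging A and B changed 6 to 3, and an estimated correlation changed 6, 10 and 1 to 1, 4 and 0. A pseudocount of 0.1 RPM gave 2 between the knockouts. Leaving out 1 library gave 3 to 7 in Dnmt1 KO against WT (3 without Dnmt1 KO 2A), 7 to 12 in Dicer/Dnmt1 KO against WT (7 without Dicer/Dnmt1 KO 1A), and 1 to 3 between the knockouts (3 without Dicer/Dnmt1 KO 2B, 2 without WT 1A, any 1 Dnmt1 KO library or Dicer/Dnmt1 KO 2A). With the replicate block there were 6, 10 and 5 calls without the filter. Same-numbered libraries of different groups did not deviate together in all pairs (correlations of -0.34 to 0.58), so the numbers are not taken as a pairing. Dicer1 in Dnmt1 KO against WT (0.19) changed sign with the replicate block (-0.07), with WT numbers 1 and 2 only (-0.07) and without WT 4A and WT 4B (-0.01). The cause was not tested.

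Over all genes the counts were 5289, 7985 and 4682 with the filter, 901, 1650 and 589 with a minimum fold of 2, and 2288, 5134 and 1225 with A and B averaged. An estimated correlation gave 2723 in Dnmt1 KO against WT and 2109 between the knockouts. Without the filter they were 6061, 9240 and 4511, and 2019, 3048 and 1012 with a minimum fold of 2, 2829, 5703 and 1001 averaged, and 3885 and 2746 (first and last comparison) with an estimated correlation. Of 2676 alternative values for 99 named results of list genes, 165 lost the call and 0 changed sign. Of 399 for the 17 calls of members without the filter, 63 lost the call and 0 changed sign. At 3 reads per member and library in the median, differences under about the size of a few reads cannot be detected.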
